A study of Debaryomyces hansenii with 6 samples.

Results

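The response of the yeast Debaryomyces hansenii after 3 h in salt was measured on 2 of the 6 arrays of the study. On each of these arrays, RNA of cells held for 3 h in 2 M NaCl was hybridised together with RNA of control cells taken at time 0, before the salt was added. The arrays were chosen by their labels alone. On replicate 1 the salt RNA carried the dye Cy5 and the control RNA carried Cy3. On replicate 2 the dyes were exchanged, and both RNAs came from other biological replicates. The other arrays of the study set 0.5 h and 6 h of the same salt treatment against time-0 RNA in the same way, with 2 arrays each. All cells had grown at 30 °C in YPD, a rich medium with glucose, to early log phase. No cells kept without salt for 3 h were on the arrays, so a change with time in culture and a change with salt cannot be told apart.

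Debaryomyces hansenii is a salt-tolerant yeast known from sea water, brines and cured foods. In yeasts, high salt draws water out of the cell and brings sodium ions in. Yeasts are known to answer with glycerol, a small solute that holds water in the cell, with sodium pumps and antiporters, and with a stress-activated MAP kinase pathway named after high-osmolarity glycerol (HOG). The array files described every gene as unknown, and the reference table used here gave locus names with no function, so none of the loci below was tied to these processes.

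The array carried 12640 probes for 6320 genes, 2 probes per gene. Of these genes, 5966 had a probe bright enough to be tested, and 5120 of the tested genes had a locus name. Ratios are given on the log2 scale as salt at 3 h over time 0, so that a value of 1 is a doubling in salt. Signals are in normalised intensity units, and they are compared only between the RNAs read by one probe. A gene is described by its brighter probe, and the other one is called its second probe. A locus is said to have risen or fallen where limma, fitted over all 5966 genes, gave a Benjamini-Hochberg adjusted p under 0.05.

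The 2 arrays of 3 h were not of equal quality. Spike-in transcripts, added to the RNAs in stated mixtures, had observed log ratios with a slope of 0.295 against the stated ones on replicate 1, as the scanner software gives it, and 0.838 on replicate 2. The slopes of the arrays of the other times lay between 0.788 and 0.926. The SD of the log2 ratios over all genes was 0.417 on replicate 1 and 0.663 on replicate 2. On the arrays of the other times it lay between 0.338 and 0.595, so replicate 1 was within that range and replicate 2 above it. On replicate 1, 83.7% of probes were well above background in the salt channel and 63.5% in the control channel, and on replicate 2 these shares were 78.9% and 93.4%. Counts of calls are therefore also given with each of them left out, and so is each named locus that lost its call without one of them. With 1 array of 3 h left, a dye effect no longer cancels and the standard error rests on fewer arrays. A call lost in this way can reflect lower precision as well as the ratio of the omitted array.

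After 3 h in salt 243 genes rose and 124 fell, which is 4.07% and 2.08% of the genes tested and 6.15% together. At an unadjusted p under 0.05 there were 1579 genes, or 26.5%. With the replicate number as a block in the fit, 818 genes passed, 510 higher and 308 lower, and they held all 367. Without replicate 1 of 3 h, 935 genes passed, 658 higher and 277 lower. Without replicate 2 of 3 h, 57 passed, 36 higher and 21 lower. Of the 367, 214 higher and 82 lower genes passed in the same direction without replicate 1, and 34 higher and 14 lower genes did so without replicate 2. Leaving out either array of 0.5 h, which the fit uses only for its estimate of the spread, gave far fewer calls than 367. Not all of them were among the 367. Both omissions gave the same count, since a lone 0.5 h array adds nothing to that estimate.

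The higher genes had a median log2 ratio of 1.21, with quartiles of 0.91 and 1.74 and a range of 0.61 to 3.49. The lower genes had a median of -0.95, with quartiles of -1.16 and -0.82, and the farthest stood at -3.22. Over all genes tested the median was 0.02, the quartiles were -0.21 and 0.27, and 79.0% of genes lay within 0.5 of 0. With the processing used here the directions thus differed in reach as well as in number. With median centring in place of loess normalisation the numbers were nearer, at 142 higher and 116 lower. Of the 243 higher genes, 156 had a log2 ratio of 1 or more and 37 one of 2 or more. Of the 124 lower genes, 54 had fallen by 1 or more and 4 by 2 or more. A log2 ratio of 1 or more on both arrays was reached by 99 genes, which is 1.66% of those tested, and one of -1 or below on both arrays by 34 genes, which is 0.57%.

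**Figure D1:**
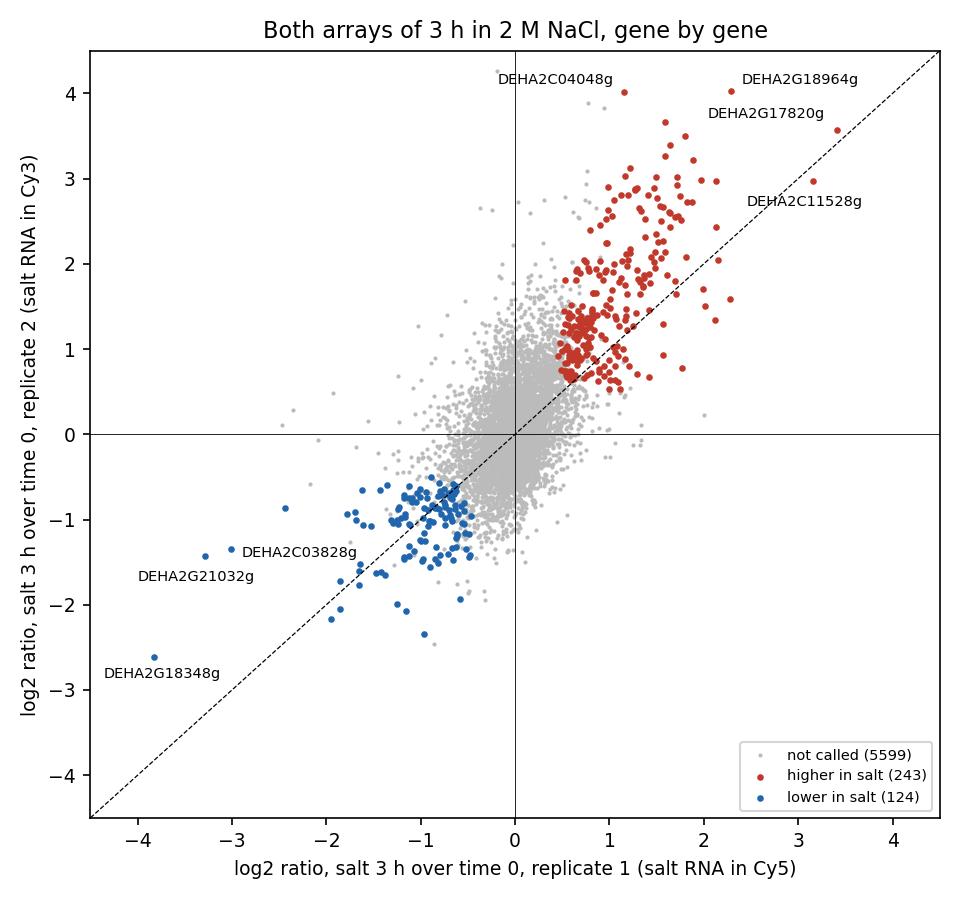
Log2 ratio of each gene on the 3 h array of replicate 1 (horizontal axis, salt RNA in Cy5) and of replicate 2 (vertical axis, salt RNA in Cy3), with genes called higher in red, called lower in blue and others in grey, and a dashed line of equal ratios. Most red points lie above the line, since 208 of the 243 higher genes had the larger ratio on replicate 2.

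The locus that rose most was DEHA2G17820g, on chromosome G. Its normalised signals were 36067 and 59118 in salt on replicates 1 and 2, against 3391 and 4989 at time 0. Both salt values lay above both control values. The log2 ratios of 3.41 and 3.57 gave a mean of 3.49 ± 0.11 (SD, n = 2), with a 95% interval of 2.94 to 4.04, which is 11.2-fold (limma adjusted p 0.00322). The second probe gave smaller log2 ratios of 2.33 and 1.23, so the direction was the same and the size depended on the probe. With median centring in place of loess normalisation, the mean log2 ratio of the brighter probe was 2.52.

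DEHA2G18964g, also on chromosome G, had signals of 1499 and 3000 in salt and of 307 and 183 at time 0. All 4 values were set apart by RNA, but the log2 ratios, 2.29 and 4.03, differed between the arrays by more than those of DEHA2G17820g. Their mean was 3.16 ± 1.23 (SD, n = 2), or 8.94-fold (limma adjusted p 0.00892), and it was 2.29 with an adjusted p of 0.0532 without replicate 2. DEHA2C11528g on chromosome C had signals of 3149 and 2456 in salt, against 354 and 313 at time 0. Here the larger ratio was that of replicate 1, at 3.15 against 2.97 on replicate 2. The mean was 3.06 ± 0.13 (SD, n = 2), or 8.36-fold (limma adjusted p 0.0116). Without replicate 2 the call was lost, though the log2 ratio of 3.15 was no smaller. As for the leading locus, its second probe gave smaller log2 ratios, of 2.41 and 1.53. These were the only higher genes whose second probe fell short by 1 or more on the log2 scale, that is 2 of 243.

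The next 7 loci by log2 ratio were DEHA2A03498g, DEHA2F02662g, DEHA2C04048g, DEHA2A09460g, DEHA2D17512g, DEHA2F25344g and DEHA2C15532g. Their mean log2 ratios lay between 2.43 and 2.65, and each had a larger ratio on replicate 2 than on replicate 1. DEHA2C04048g showed the widest gap. Its signals were 1957 and 7611 in salt, against 877 and 472 at time 0, so its log2 ratios were 1.16 and 4.01. The mean of 2.58 ± 2.02 (SD, n = 2) had an adjusted p of 0.0497 in limma, just inside the threshold. With a replicate block the adjusted p was 0.00197. Its 95% interval in limma, 1.17 to 4.00, used the spread over all times and not that SD alone. Replicate 2 also gave the larger log2 ratio at 0.5 h (1.40 against 0.35) and at 6 h (2.32 against 0.91). Without replicate 2 of 3 h the call was lost, at a log2 ratio of 1.16. DEHA2A09460g alone of the 7 kept its call with either array of 3 h left out. It had signals of 4884 and 8630 in salt, against 1320 and 930 at time 0, and a log2 ratio of 2.55 ± 0.94 (SD, n = 2). Its adjusted p was 0.00327 without replicate 1 and 0.0466 without replicate 2. Of the other 5, none passed without replicate 2, with adjusted p-values from 0.0572 for DEHA2C15532g to 0.243 for DEHA2F02662g.

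DEHA2A03498g and DEHA2F25344g were near background at time 0. DEHA2A03498g had signals of 375 and 757 in salt, against 108 and 67.1 at time 0, and DEHA2F25344g had 449 and 978 in salt, against 114 and 123 at time 0. The control RNA of each was well above background on 1 of the 2 arrays, so the denominators of these ratios are less certain than those of the brighter loci. The same held for 34 of the 243 higher genes, while the salt RNA of all 243 was well above background on both arrays.

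Further loci stood out by the moderated statistic of limma, which sets the ratio against a spread over the arrays of all times. Close 3 h arrays alone were not enough, since DEHA2C11528g, with an SD of 0.13, had a statistic of 6.77 against 11.8 for DEHA2B01804g. DEHA2B01804g on chromosome B had signals of 10143 and 6858 in salt, against 2315 and 1274 at time 0. Its log2 ratio was 2.28 ± 0.21 (SD, n = 2), or 4.86-fold (limma adjusted p 0.00386), and the second probe gave 2.19 and 2.53. DEHA2E12276g on chromosome E had signals of 6870 and 5893 in salt, against 2110 and 1889 at time 0. With log2 ratios of 1.70 and 1.64, the arrays were closer to each other than for any locus named so far, and the mean was 1.67 ± 0.04 (SD, n = 2), or 3.19-fold. Both loci passed without replicate 1 and without replicate 2 of 3 h. With median centring in place of loess, the log2 ratio of DEHA2E12276g was 1.05 with an adjusted p of 0.0545, whereas DEHA2B01804g passed at 1.63.

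**Figure D2:**
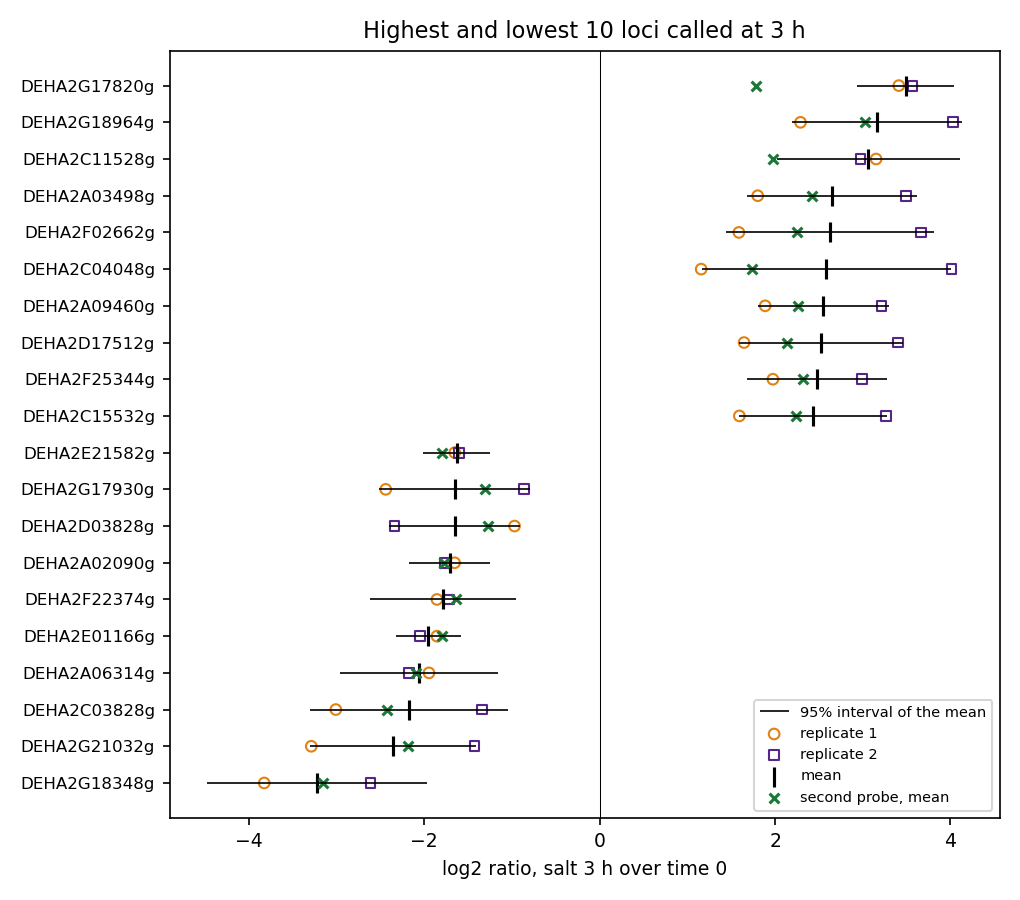
Log2 ratio of salt at 3 h over time 0 (horizontal axis) for the 10 highest and 10 lowest called loci that met the naming rule. Circles stand for replicate 1, squares for replicate 2 and black ticks for their mean. Lines give limma's 95% interval, from the spread over all times, and green crosses the second probe's mean. The crosses lie on the same side of 0 as the mean for all 20 loci, and those of DEHA2G17820g at 1.78 and DEHA2C11528g at 1.97 lie farthest from it.

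The locus that fell most was DEHA2G18348g on chromosome G. Its signals were 903 and 1693 in salt, against 12790 and 10350 at time 0, so the probe was dimmer with salt RNA on both arrays. The log2 ratios of -3.82 and -2.61 gave a mean of -3.22 ± 0.86 (SD, n = 2), with a 95% interval of -4.47 to -1.96, which is 9.31-fold lower (limma adjusted p 0.0193). The second probe gave -3.93 and -2.37. Without replicate 2 the adjusted p was 0.0613 and without replicate 1 it was 0.049.

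DEHA2G21032g had signals of 206 and 615 in salt, against 2012 and 1653 at time 0. The fall was larger on replicate 1, with log2 ratios of -3.29 and -1.43, and the mean was -2.36 ± 1.32 (SD, n = 2), or 5.13-fold lower (limma adjusted p 0.0208). DEHA2C03828g on chromosome C had signals of 1224 and 3681 in salt, against 9849 and 9346 at time 0, with log2 ratios of -3.01 and -1.34. Its mean of -2.18 ± 1.18 (SD, n = 2) had an adjusted p of 0.042 in limma, which became 0.139 without replicate 1 and 0.0572 without replicate 2. For these loci the salt signals differed between the arrays more than the control signals did.

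The following 3 loci had nearly the same ratio on both arrays. DEHA2A06314g had signals of 206 and 162 in salt, against 792 and 728 at time 0, and a log2 ratio of -2.06 ± 0.16 (SD, n = 2). DEHA2E01166g had 201 and 327 in salt, against 726 and 1352 at time 0, and a log2 ratio of -1.95 ± 0.14 (SD, n = 2). DEHA2F22374g had 619 and 557 in salt, against 2239 and 1830 at time 0, and a log2 ratio of -1.79 ± 0.10 (SD, n = 2). In each, both salt signals lay below both control signals. Of these, DEHA2E01166g had the lowest adjusted p, at 0.00386 in limma, against 0.0258 for DEHA2A06314g and 0.0292 for DEHA2F22374g. Their standard errors in limma, which use the arrays of all times, were 0.16, 0.39 and 0.36 in that order. Without replicate 2 of 3 h DEHA2E01166g passed at 0.0228, DEHA2A06314g did not at 0.189, and DEHA2F22374g did not at 0.182. Without replicate 1, DEHA2F22374g was also lost, at 0.062.

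DEHA2A02090g on chromosome A had signals of 464 and 457 in salt, against 1459 and 1553 at time 0, which left a wide gap between the RNAs. Its log2 ratio was -1.71 ± 0.08 (SD, n = 2), or 3.27-fold lower, and the second probe gave -1.78 and -1.77. DEHA2E21582g had signals of 128 and 238 in salt, against 402 and 724 at time 0, and a log2 ratio of -1.63 ± 0.03 (SD, n = 2). DEHA2G19602g, named for its moderated statistic, had 424 and 374 in salt, against 1180 and 1154 at time 0, and a log2 ratio of -1.55 ± 0.11 (SD, n = 2). Without replicate 1 and without replicate 2 of 3 h these 3 loci kept their calls. The remaining loci of the lowest 10 varied more. DEHA2D03828g had log2 ratios of -0.97 and -2.34, and its adjusted p was 0.22 without replicate 2. DEHA2G17930g had log2 ratios of -2.44 and -0.86, and its adjusted p was 0.13 without replicate 1. The salt RNA of DEHA2G17930g, with signals of 78.7 and 344 against 427 and 626 at time 0, was well above background on 1 of 2 arrays.

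Among all 124 lower genes the salt RNA was well above background on both arrays for 111, on 1 array for 9 and on neither for the other 4, whose falls are therefore measured against background. Among the 5120 tested genes with a locus name, transcripts seen in one RNA alone were searched for over the 4 values of each RNA. None was well above background with both probes on both arrays in one RNA and with neither probe on either array in the other. These genes thus gave 0 transcripts seen in salt alone and 0 seen at time 0 alone by that rule. Genes without a locus name were not searched. Among all tested genes, 32 were not well above background with any probe in the control RNA and 192 in the salt RNA.

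Genes with bright probes made up most of the calls. Signal depends on the probe as well as on the RNA level, so brightness here is that of the probes. Genes were put in 4 classes of near equal size by mean log2 signal on the 3 h arrays. In the brightest class 149 rose and 69 fell, so 14.6% were called. In the dimmest class 7 rose and 8 fell, or 1.01%, and the classes between gave 3.22% and 5.77%. The arrays also followed each other more closely among bright genes. Across genes, Pearson's r between replicate 1 and replicate 2 was 0.27, 0.48, 0.62 and 0.70 in the classes running dim to bright, and 0.60 over all genes (Spearman's rho 0.50). Genes are not independent replicates, and these are descriptions. The sign was the same on both arrays for 65.6% of the 5963 genes with a ratio on each.

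**Figure D3:**
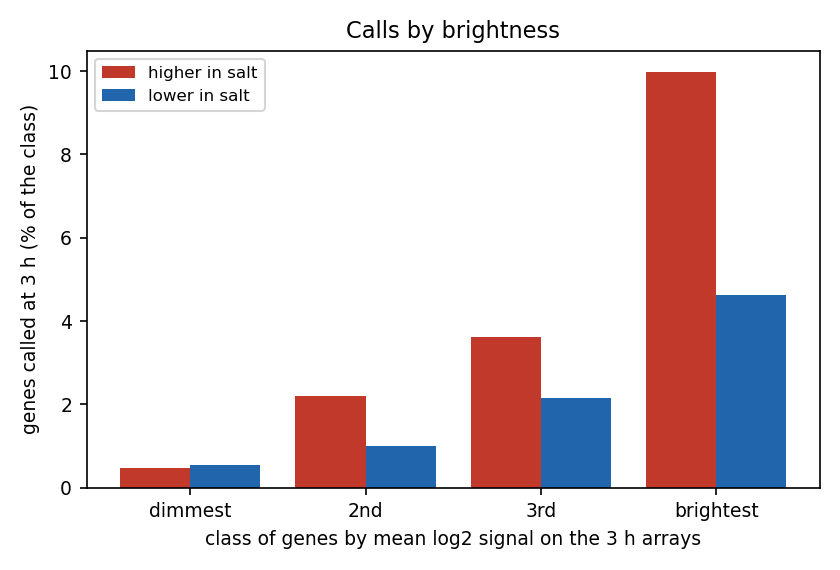
Share of genes called at 3 h (vertical axis, percent of the class) in 4 classes of genes ordered by mean log2 signal on the 3 h arrays, with red bars for genes higher in salt and blue bars for genes lower in salt. The share of higher genes is 0.47% in the dimmest class and 9.99% in the brightest.

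By mean probe signal, the called loci at the bright end were DEHA2G17820g, DEHA2D02376g and DEHA2G03740g on the higher side, and DEHA2C03828g, DEHA2G18348g and DEHA2G14960g on the lower side. DEHA2D02376g had signals of 32578 and 29628 in salt, against 11024 and 12122 at time 0, and a log2 ratio of 1.43 ± 0.19 (SD, n = 2; limma adjusted p 0.0134). With median centring in place of loess its log2 ratio was 0.31 with an adjusted p of 0.477, and without replicate 2 the adjusted p was 0.0645. DEHA2G03740g had signals of 11438 and 9665 in salt, against 5358 and 6341 at time 0, and a log2 ratio of 0.85 ± 0.34 (SD, n = 2; limma adjusted p 0.0305), which became 0.02 with median centring. Its adjusted p was 0.0881 without replicate 1 and 0.0645 without replicate 2. Its second probe gave 0.85 on replicate 1 and -0.47 on replicate 2, so the rise of this locus was not seen with both probes on both arrays. DEHA2G14960g had signals of 2244 and 3313 in salt, against 4510 and 5163 at time 0, and a log2 ratio of -0.82 ± 0.26 (SD, n = 2; limma adjusted p 0.0266). With median centring it was -1.45, and the adjusted p was 0.0675 without replicate 1 and 0.0713 without replicate 2. For all 3 loci the value thus depended on how brightness was handled, and centring gave lower ratios than loess. The same held for DEHA2G17820g, at 2.52 with median centring against 3.49 with loess, though its call was kept.

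The ratios of the higher genes were larger on replicate 2. Their median log2 ratio was 0.97 on replicate 1 and 1.42 on replicate 2, and 208 of the 243 had the larger value on replicate 2. The lower genes were more even, with medians of -0.91 and -0.99 and with 72 of 124 farther from 0 on replicate 2. The lower spike-in slope of replicate 1 stands beside these values. At the other times replicate 2 also had the larger SD of log2 ratios over all genes. It was 0.373 against 0.338 at 0.5 h and 0.595 against 0.446 at 6 h. The slopes of replicates 1 and 2 were 0.837 and 0.926 at 0.5 h, and 0.788 and 0.910 at 6 h. The parts of slope, dye and replicate in these values were not tested. The second probes gave a median of 1.02 for the higher and of -0.92 for the lower genes. One called locus, DEHA2C00660g, had a second probe on the other side of 0, at 0.06, against -0.96 with the brighter probe, which shares at least 25 bases with a probe of another gene. DEHA2E14300g was the 1 gene with a size of 1 or more in opposite directions on the arrays. Its log2 ratio was -1.03 on replicate 1 and 1.27 on replicate 2, and it was not called. These 2 loci were singled out after their values were seen.

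Called loci were spread over all 7 chromosomes. Of the tested genes with a locus name, 4.45% were higher and 2.19% lower. Chromosome D had the largest share of higher genes, 40 of 659 or 6.07%, and chromosome E the smallest, 25 of 840 or 2.98%. For lower genes the shares ran from 1.52% on chromosome D to 2.69% on chromosome A. The 20 outermost loci at each chromosome end, 280 in all, had 172 tested members, of which 3 were higher and 6 lower. No test was made of these shares.

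Some called loci were neighbours in the order of the reference table. Of the 4330 adjacent pairs of tested loci, 28 had both loci called and 511 had 1 called. Among all tested genes with a locus name 6.64% were called. Of the 28 pairs, 16 had both loci higher, 6 had both lower and 6 went in opposite directions. Whether called loci lie together more often than other loci was not tested. The longest run held 3 loci on chromosome D. In it, DEHA2D09372g had signals of 319 and 286 in salt, against 206 and 130 at time 0, and a log2 ratio of 0.88 ± 0.36 (SD, n = 2). DEHA2D09394g had 1370 and 774 in salt, against 546 and 224 at time 0, and a log2 ratio of 1.56 ± 0.32 (SD, n = 2). DEHA2D09416g had 1644 and 1979 in salt, against 525 and 326 at time 0, and a log2 ratio of 2.12 ± 0.67 (SD, n = 2). The ratio thus grew along the run, and the salt and control signals of each locus did not overlap. Without replicate 2 of 3 h the adjusted p-values were 0.22, 0.144 and 0.032 in that order.

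There were 20 runs of 2 loci. On chromosome A, DEHA2A13134g rose by 2.14 ± 0.59 (SD, n = 2) on the log2 scale and its neighbour DEHA2A13156g by 0.62 ± 0.19, with limma adjusted p-values of 0.00567 and 0.0477, and of 0.0513 and 0.357 without replicate 2 of 3 h. Elsewhere on that chromosome DEHA2A02376g and DEHA2A02398g fell, with log2 ratios of -0.85 ± 0.01 and -1.06 ± 0.13 (SD, n = 2). Without replicate 2 of 3 h both calls were lost, and without replicate 1 that of DEHA2A02376g was lost as well. Its log2 ratios on replicates 1 and 2 were nearly the same, at -0.85 and -0.86. Of the 10 highest and 10 lowest named loci, 4 had a called neighbour. Among all tested genes with a locus name 6.64% were called, and a locus can have a neighbour on each side. The count is therefore given as a description and was not tested. DEHA2G17820g, the highest, lies beside DEHA2G17798g, which fell with a log2 ratio of -1.62. DEHA2G18348g, the lowest, lies beside DEHA2G18326g, which fell as well, at -0.91. DEHA2C11528g lies beside DEHA2C11506g at 0.91, and DEHA2C03828g, which fell, beside DEHA2C03806g, which rose, at 0.97. The 4 neighbours were named after their values were seen. Over the 4330 adjacent pairs of tested loci, called or not, 53.3% had the same sign.

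The genes called at 3 h had medians nearer to 0 at 0.5 h and at 6 h. In limma, 4 genes were called at 0.5 h over time 0, 1 higher and 3 lower (0.067%, 0.0168% and 0.0503% of those tested), and 431 at 6 h, 270 higher and 161 lower (7.22%, 4.53% and 2.7%). The arrays of the times may share control RNA, which the labels do not state, so the values are set side by side without a measure of likeness. Because the loci were picked at 3 h, their values there tend to be the farther ones. The 243 higher genes had a median log2 ratio of 0.33 at 0.5 h, with quartiles of 0.13 and 0.68. At 3 h it was 1.21, and at 6 h it was 0.94 with quartiles of 0.40 and 1.75. The 124 lower genes had medians of -0.25 at 0.5 h, -0.95 at 3 h and -0.71 at 6 h. The medians of all genes tested were -0.0035, 0.02 and -0.0145 in the same order.

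Single loci differed in their courses. DEHA2G17820g stood at 1.60, 3.49 and 1.90 on the log2 scale at 0.5, 3 and 6 h, and DEHA2B01804g had 0.26, 2.28 and 1.61. DEHA2E01166g was low at each time, with -1.75, -1.95 and -2.14, and DEHA2E21582g likewise, with -1.57, -1.63 and -2.11. DEHA2G19602g was at -0.35, -1.55 and -2.10, and DEHA2A02090g at 0.10, -1.71 and -1.46. By contrast DEHA2G21032g was at 0.14 at 0.5 h, -2.36 at 3 h and 0.14 at 6 h, and DEHA2G17930g at -0.31, -1.65 and 0.11. DEHA2G18348g was at -0.14, -3.22 and -1.12, and its replicates parted at 6 h, with 0.20 and -2.45. None of the differences of these loci between 3 h and another time passed the test, with the lowest adjusted p at 0.0986 in limma, for DEHA2B01804g at 3 h over 0.5 h.

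**Figure D4:**
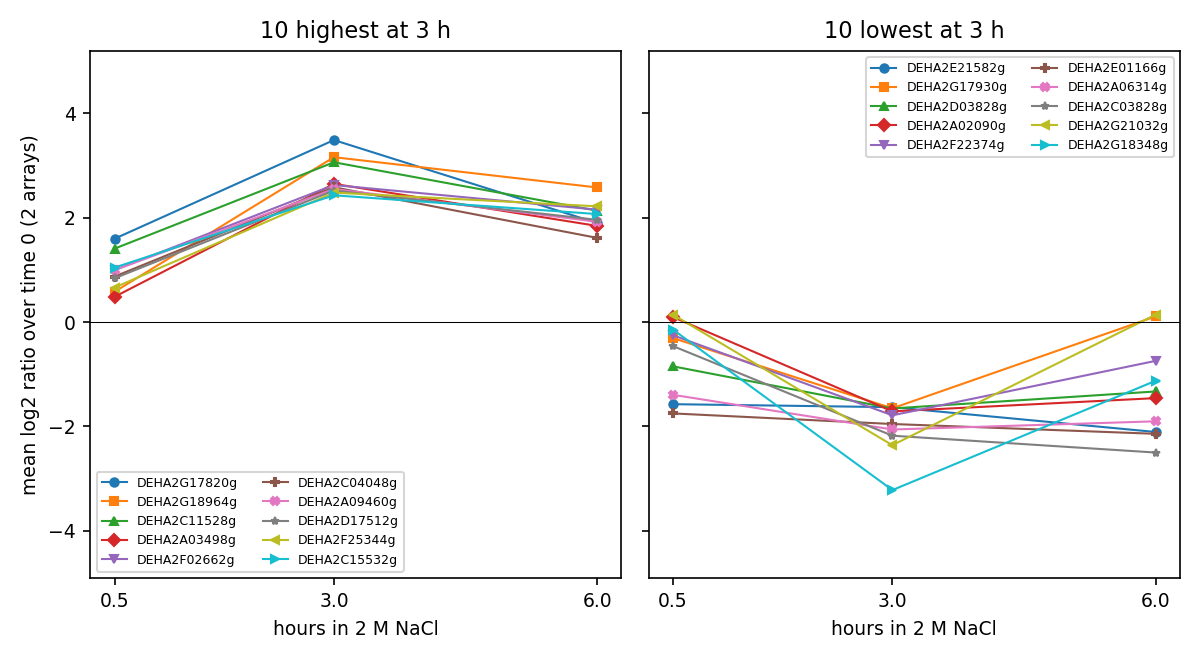
Mean log2 ratio over time 0 (vertical axis, 2 arrays per time) at 0.5, 3 and 6 h in 2 M NaCl (horizontal axis) for the 10 highest loci at 3 h on the left and the 10 lowest on the right. The highest loci lie above 0 at each time, while the lowest loci spread between -1.75 and 0.14 at 0.5 h and all lie at -1.63 or below at 3 h.

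The test of the difference between times found 1 gene at 3 h against 0.5 h, or 0.0168% of those tested, with 540 genes, or 9.05%, at an unadjusted p under 0.05. This was DEHA2E14234g. Its log2 ratio at 3 h was 0.66 on replicate 1 and 0.36 on replicate 2, and at 0.5 h it was -2.78 and -2.87. The times did not overlap, and the difference of 3.33 ± 0.25 (SE, 2 arrays per time) had an adjusted p of 0.00608 in limma. At 3 h itself the ratio was not called (adjusted p 0.115), with signals of 3835 and 4609 in salt, against 2430 and 3589 at time 0. With a replicate block 11 genes passed, without either 0.5 h array 0 passed, and without replicate 1 or replicate 2 of 3 h 14 and 7 passed. DEHA2G03740g, called higher at 3 h, stood at -1.18 on the log2 scale at 0.5 h and at -0.76 at 6 h, and its difference of 3 h over 0.5 h, 2.03 ± 0.25 (SE), had an adjusted p of 0.0784.

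At 6 h against 3 h, limma called 0 genes, with 576 or 9.65% at an unadjusted p under 0.05. With the dimmer probe of each gene, or without replicate 1 of 3 h, 1 gene passed. The loci with the most extreme statistics did not pass. DEHA2G03322g differed by 1.93 and DEHA2F12804g by 1.45, both with an adjusted p of 0.437, and DEHA2E18568g and DEHA2D10076g each by -1.91 with an adjusted p of 0.215. At 3 h, DEHA2D10076g was called higher at 0.93 ± 0.18 (SD, n = 2), with signals of 6765 and 4705 in salt, against 3253 and 2697 at time 0. At 6 h it stood at -0.98. The 3 h call was lost in 11 of 20 alternatives, among them median centring (0.26, adjusted p 0.613), the dimmer probe (0.50, 0.213) and the loss of replicate 1 (0.0653) or replicate 2 of 3 h (0.111). DEHA2F12804g had signals of 197 and 194 in salt at 3 h, against 321 and 330 at time 0. Its log2 ratio of -0.73 ± 0.04 (SD, n = 2) had an adjusted p of 0.0618, and of 0.0416 with a replicate block.

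The number of loci called at 3 h depended on how the signals were turned into ratios. Signals left without background correction gave 108 calls. The scanner software's own processed signals gave 100, and the authors' deposited value table, tested in the same way, gave 44. All 108 and all 44 were among the 367. With median centring in place of loess it was 258, 142 higher and 116 lower, so that 55.0% of calls were higher, against 66.2% as reported. No called locus changed sign under these settings. Of the 34 named loci called at 3 h, 7 passed with the deposited values and 11 without replicate 2 of 3 h. The calls of DEHA2G17820g, DEHA2B01804g, DEHA2A02090g, DEHA2E01166g, DEHA2E21582g and DEHA2G19602g held in all 20 alternatives, while that of DEHA2A13156g was lost in 14 and that of DEHA2G03740g in 12.

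**Figure D5:**
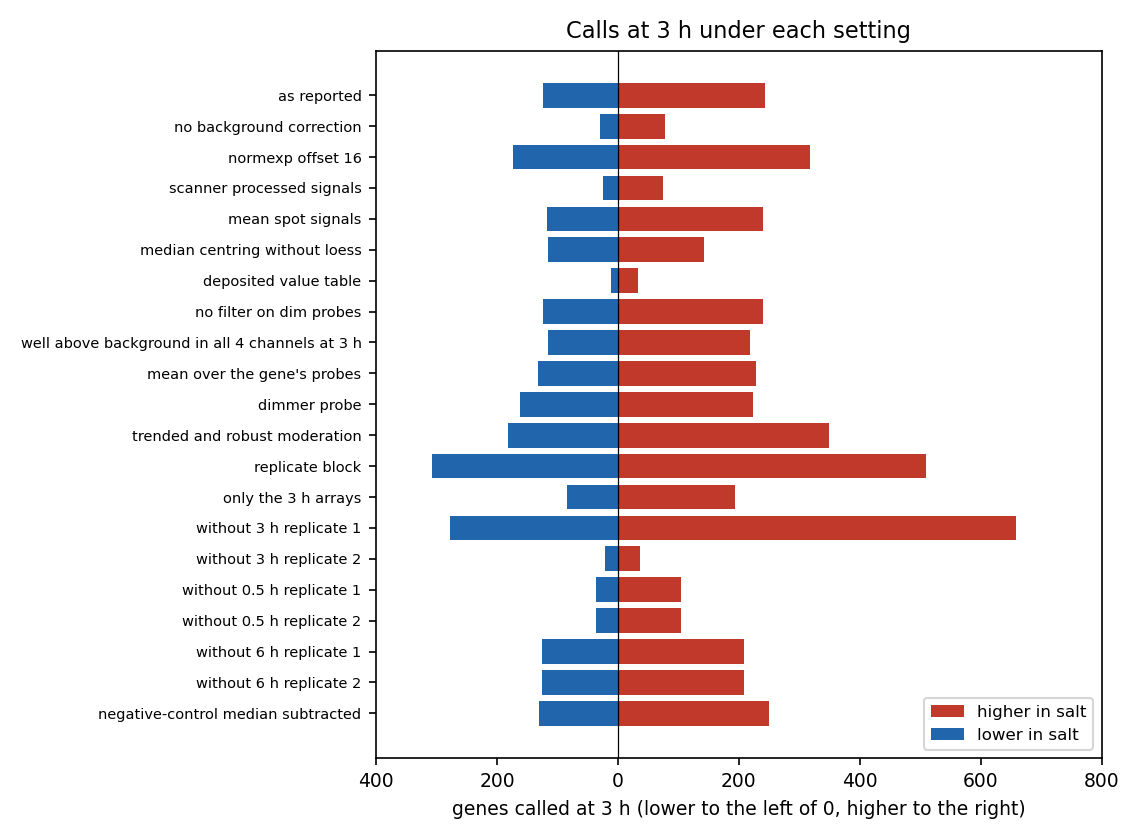
Number of genes called at 3 h (horizontal axis, higher in salt to the right of 0 in red, lower to the left in blue) as reported and under each of the 20 alternatives. The counts run from 44 with the deposited value table to 935 without replicate 1 of 3 h.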

How the data were processed

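Total RNA was amplified, labelled and hybridised to 2-colour Agilent arrays, per the labels. Per the file headers, Feature Extraction 9.1.3.1 made the deposited intensities, which are medians and means of each spot and of its local background, and processed signals. Per the labels, the authors went on with the median intensity of each spot. The log10 ratios in the scanner files, per the file headers, are of processed red over green, and were not used. The submitters' processing notes name limma. The deposited value table was found, by setting it against the scanner data, to hold log2 ratios of salt over time 0. It correlated at 0.988 to 0.996 with uncorrected, loess-normalised ratios taken as the mean of both probes, and the medians of its 3 h columns were 0.00381 and -0.0109. Which normalization made it was not given in the sources used here.

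With limma 3.58.1 in R 4.3.3, median signals were background-corrected (normexp, offset 50), and each array was normalised by loess, where control spots had weight 0. The 16 values marked as outliers were dropped. Signals were scaled between arrays by Aquantile, which leaves ratios unchanged. Replicate 2 was turned so that positive means higher in salt. A probe was kept if 2 or more of its 12 channel values were well above background, and the brighter of a gene's probes was used. One fit over 6 arrays, with a coefficient per time, gave limma's moderated test (lmFit, eBayes) with Benjamini-Hochberg adjustment, and was tested on simulated data. The spread is thus pooled over the times. The number of arrays limits the precision, and p-values measure the spread between these arrays.

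Deviations from the time means, compared over all genes between arrays with one replicate number, correlated at 0.19, 0.37 and 0.31 for 0.5 h with 3 h, 3 h with 6 h and 0.5 h with 6 h. By the rule used here this pairs the replicate numbers, so counts with a replicate block stand beside the main ones. The block is the same split as dye orientation and biological replicate, so these cannot be told apart. All arrays lay on 1 slide.

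Accessions were matched, without versions, to locus names in a RefSeq table of assembly ASM644v2, for 5348 of 6320 genes. Coordinates are left out because the assembly behind the array design is not named. Lists by gene symbol, protein or promoter could not be used, and genes without a locus name are not named. Loci were named by rule. The rule's first part was limited to called genes with one sign on both arrays and a second-probe mean of that sign. The probe used shared no run of 25 bases with a probe of another gene. From these genes the rule took the 10 highest and 10 lowest ratios, the 3 and 3 most extreme moderated statistics and the 3 and 3 brightest. Besides these it took the longest runs of called neighbours (ties in chromosome order) and, whether called at 3 h or not, the most extreme differences between times. The loci, lists and rule were chosen with earlier results of these data known.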

Additional observations from a re-analysis of the deposited data

Results flagged for a closer look

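Of array quality, 10 measures were searched for an array far from the other members of the 6. By chance alone about 1 in 20 such searches finds one among the 6 arrays, and fewer find it on a 3 h array. Only those on the 3 h arrays are listed here. On the 3 h array of replicate 1 the spike-in slope was 0.295, below that of the other arrays, and the median red signal of the negative controls was 113.5, above the others. On the 3 h array of replicate 2, 93.4% of probes passed the scanner software's background test with the control RNA, the highest share among the 6 arrays. On both replicates the control and salt RNAs carried different dyes, so this share compares Cy5 with Cy3 arrays. The cause of these values was not tested.

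The log2 ratio of DEHA2E14234g differed by 3.33 between 3 h and 0.5 h, by a test of that difference in limma.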

How the results depend on the processing

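The number of genes called at 3 h, 367 as reported, was 108 with no background correction, 100 with processed signals, 44 with the deposited table and 818 with a replicate block. With one array left out it ran from 57 (replicate 2 of 3 h) to 935 (replicate 1 of 3 h). With each of the other 10 alternatives it stayed within 1.5 times the reported count, at 258 with median centring, where the higher share was 55.0%, and 531 with a trended and robust moderation. Subtraction of the negative-control median, chosen after seeing the data, gave 379. With the dimmer probe 1 of the 367 genes, DEHA2C00660g, had a ratio of opposite sign, at 0.06. At 3 h against 0.5 h, where 1 gene was called, the count was 2 with a normexp offset of 16 or the dimmer probe, 0 with processed signals, median centring, the deposited table or a trended moderation, 11 with a replicate block and 0 to 14 with one array left out. At 6 h against 3 h, where 0 were called, it was 1 with the dimmer probe and 0 to 1 with one array left out. Of the 34 called loci named by rule, none changed direction in the alternatives run. The replicate block ended no call of a named locus at 3 h. Of the uncalled named loci, DEHA2E14234g had a log2 ratio at 3 h of -0.11 with median centring. With a 3 h array left out, DEHA2E18568g had -0.34 (without replicate 2) and 0.0809 (without replicate 1), and DEHA2G03322g had -0.61 (without replicate 1) and 0.16 (without replicate 2). With the dimmer probe DEHA2E18568g had -1.09. The causes were not tested. Each time had 2 arrays, so a lone array left by an omission was assumed to vary like the others. A dye effect does not cancel in the ratio of a lone array.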
